A study of Mus musculus with 16 samples.

Results

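The unfolded protein response was followed through 10 genes, *Xbp1*, *Atf4*, *Atf6*, *Ddit3*, *Ern1*, *Eif2ak3*, *Herpud1*, *Sdf2l1*, *Manf* and *Creld2*, in RNA of EpCAM+ cells sorted from the distal colon of 16 mice. The genes were taken by symbol, and all 10 were found among the 22396 gene symbols of both expression tables. Uninjured mice drank water: 4 were controls (Tnfr2-f/f) and 5 were labelled knockout (Vil1::Cre;Tnfr2-f/f). Injured mice drank dextran sulfate sodium (DSS), which damages the colonic epithelium, at 3% for 6 days by the labels: 3 were controls and 4 were labelled knockout. For these mice the paper states that the cells came from injured regions, which had been set apart from unaffected colon. All 16 mice carry the floxed *Tnfr2* alleles, and the labels place the dissection of every mouse at day 12. Cre recombinase driven by the villin promoter is active in intestinal epithelial cells, so any other cell in the sort keeps the receptor. All 7 DSS-treated mice were female, from cages c (2 mice) and d (5 mice). The water-treated mice came from cage a (4 males) and cage b (5 females), so that treatment cannot be told apart from cage.

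The endoplasmic reticulum (ER) folds the proteins that a cell secretes or puts on its surface. When unfolded protein accumulates there, 3 sensors in the ER membrane signal to the nucleus. IRE1, encoded by *Ern1*, cuts a short stretch out of *Xbp1* mRNA, and the new reading frame encodes the active transcription factor. PERK, encoded by *Eif2ak3*, phosphorylates a translation initiation factor, which slows translation in general but favours that of *Atf4*. ATF6 is cut in the Golgi apparatus and its freed part enters the nucleus. Cells with a heavy secretory load, such as goblet cells and antibody-secreting plasma cells, are known for a high need of this machinery. Immunoglobulin transcripts made up a large and uneven part of the RNA in the water-treated mice, so the genes were set beside that share.

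The site at which the sensor IRE1 cuts is shown first, because the values of *Xbp1* must be read with it in mind. The listed *Xbp1* transcript has 2129 bases and holds the pattern of this site once, in the coding part of exon 4. Taking out the 26 bases at chr11:5524282-5524307 (GRCm38, plus strand) gives the spliced form. They are the capitals in the following 60 bases (chr11:5524265-5524324, GENCODE M21). The letters cag stand just before the capitals and also end them. A stretch of equal length that starts at the earlier cag leaves the same spliced form, so the capitals do not fix the cut sites.
Xbp1: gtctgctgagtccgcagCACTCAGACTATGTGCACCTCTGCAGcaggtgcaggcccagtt
None of the 4 annotated *Xbp1* transcripts, that is 0 of 4, has the junction formed when these bases are gone. The *Xbp1* level, which is that of the listed transcript, therefore does not tell the cut from the uncut form.

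The promoters of the members were searched next for elements that transcription factors of the response bind. ATF6 and XBP1 bind the ER stress response element, which is CCAAT and CCACG with 9 bases between them, and its variant ERSE-II, which is ATTGG and CCACG with 1 base between them. Of the 10 members, 8 had a promoter of 300 bases in the RefSeq table (GRCm38.p6), from 250 bases before to 50 after the start; *Atf6* and *Manf* had none. On either strand, the first element was found in *Creld2*, from −126 to −108, and in *Hspa5*, the gene of the main ER chaperone BiP, from −65 to −47. ERSE-II was found in *Herpud1*, from −52 to −42. These elements are held by 39 (0.119%) and 12 (0.0365%) of 32851 promoters in the table. The third pattern searched, TGACGTGG, the core that XBP1 binds, was in none of the 9 promoters of the 8 members and *Hspa5*, and in 222 (0.676%) of all. The shorter CCACG, which is part of both elements, occurs in 32.8% of all promoters, and it was found in *Sdf2l1*, *Atf4* and *Ern1* beside the 3 named above. The 150 bases before the start are given for the 3 promoters with an element, in capitals, and for *Sdf2l1*, which varied like *Creld2* and held none of the 3 longer patterns.
Creld2: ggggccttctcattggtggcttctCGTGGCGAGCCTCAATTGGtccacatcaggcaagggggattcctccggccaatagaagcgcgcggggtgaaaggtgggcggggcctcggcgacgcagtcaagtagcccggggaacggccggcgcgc
Herpud1: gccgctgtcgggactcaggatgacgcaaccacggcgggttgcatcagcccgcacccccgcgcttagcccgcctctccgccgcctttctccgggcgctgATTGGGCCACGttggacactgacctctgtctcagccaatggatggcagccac
Hspa5: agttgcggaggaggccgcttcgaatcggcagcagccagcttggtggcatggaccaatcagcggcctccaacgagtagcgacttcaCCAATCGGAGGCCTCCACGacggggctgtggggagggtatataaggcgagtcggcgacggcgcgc
Sdf2l1: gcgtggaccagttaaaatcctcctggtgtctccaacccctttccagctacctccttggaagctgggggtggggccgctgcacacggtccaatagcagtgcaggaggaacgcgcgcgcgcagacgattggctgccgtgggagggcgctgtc
They lie at chr15:88819496-88819645 (*Creld2*, plus strand), chr8:94386279-94386428 (*Herpud1*, plus), chr2:34771940-34772089 (*Hspa5*, plus) and chr16:17132384-17132533 (*Sdf2l1*, minus). In *Creld2* the element is on the opposite strand, so the capitals show its reverse complement. A match is a description of these letters only.

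Levels are in TPM, a transcript's share of all transcripts corrected for its length. Only each gene's principal transcripts are listed, and the TPM keep no read counts, so the depth behind a value is unknown from the tables. Each treatment's table was scaled on its own, and levels between treatments are given without a test. The targeted gene *Tnfrsf1b* had 13.9 ± 2.06 TPM (SD, n = 4) in the water-treated controls and 11.8 ± 2.30 (n = 5) in the knockout-labelled mice, and 16.5 ± 4.95 (n = 3) and 18.4 ± 6.02 (n = 4) after DSS. Since the value draws on all exons of the transcript, it does not check the loss of a single exon. The summed TPM of 8 epithelial markers lay between 4306 and 5990 in the water-treated mice and between 4317 and 7011 after DSS. Markers of other cells were present in the water-treated mice: 10 plasma cell markers summed to between 526 and 14508 TPM, and 6 macrophage markers to between 942 and 2143. After DSS the same sums were 64.6 to 515 and 15.7 to 56.6. The sum of 7 stromal markers lay between 222 and 768 TPM in the water-treated mice and between 112 and 511 after DSS. Of the listed plasma cell markers, *Derl3*, which is also a gene of the endoplasmic reticulum, stayed below 1 TPM in every mouse. *Tnfrsf17* and *Tnfrsf13b* did so in every DSS-treated mouse. *Txndc5* and *Fkbp11*, which are in the same sums, are ER genes as well. They had 37.1 to 158 and 10.2 to 20.9 TPM after DSS, where *Jchain* had 5.18 to 441. In DSS-treated control 3 the plasma cell sum was 190 TPM, with 158 of *Txndc5* and 8.04 of *Jchain*. In these bulk samples, fewer cells of a type and less RNA per cell cannot be told apart.

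The 3 sensors had low levels. *Ern1* (IRE1, chr11:106394650-106487852, minus strand) lay between 5.01 and 8.72 TPM in the 9 water-treated mice and between 7.46 and 8.10 in the 7 DSS-treated mice. *Eif2ak3* (PERK, chr6:70844515-70905245, plus) lay between 12.9 and 19.9 TPM and between 15.8 and 22.6. *Atf6* (chr1:170704674-170867771, minus) lay between 8.75 and 19.4 TPM and between 14.1 and 17.2. The ranges of the treatments overlapped for each sensor, and *Atf6* was lowest in water-treated control 3 with 8.75 TPM. *Ern2*, the relative of *Ern1* that is made in the gut's mucus-producing cells, ranged more widely, with 5.34 to 20.3 TPM in water-treated and 4.05 to 20.4 in DSS-treated mice.

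Of the transcription factors, *Xbp1* and *Atf4* lay above the sensors in every mouse, and *Ddit3* did not. *Xbp1* (chr11:5520659-5525893, plus) had 205, 130, 94.2 and 257 TPM in water-treated controls 1 to 4. It had 183, 427, 216, 311 and 214 TPM in the 5 water-treated knockout-labelled mice. The DSS-treated controls had 117, 115 and 125 TPM of *Xbp1*, and the DSS-treated knockout-labelled mice 147, 112, 137 and 124. *Xbp1* thus spread over a 4.54-fold range in uninjured mice and over a narrow range after DSS. *Atf4* (chr15:80255184-80257541, plus) lay between 174 and 238 TPM in water-treated mice and between 154 and 242 after DSS, with no gap between the groups. *Ddit3* (CHOP, chr10:127290774-127296288, plus), a factor of the PERK branch that is known to favour cell death under lasting stress, had 28.8, 32.0, 24.2 and 39.0 TPM in the water-treated controls. It had 42.2, 16.5, 26.7, 24.0 and 29.5 TPM in the water-treated knockout-labelled mice. The DSS-treated controls had 7.69, 11.8 and 37.3 TPM of *Ddit3*, and the DSS-treated knockout-labelled mice 16.9, 7.43, 15.1 and 12.5. DSS-treated control 3 was the only DSS-treated mouse inside the range of the water-treated controls. The symbol *Ddit3* also covers a second Ensembl gene, with a listed transcript of 105 bases, which was at 0 in every mouse.

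The targets of the response act in the ER. *Herpud1* (chr8:94386438-94395377, plus), which helps degrade misfolded ER proteins, had 153, 116, 94.7 and 173 TPM in the water-treated controls and 133, 167, 105, 115 and 108 in the water-treated knockout-labelled mice. The DSS-treated controls had 58.8, 73.2 and 113 TPM of *Herpud1*, and the DSS-treated knockout-labelled mice 106, 61.6, 66.0 and 70.7. The 2 highest values after DSS were those of the 2 mice from cage c. *Sdf2l1* (chr16:17130138-17132383, minus), a partner of ER chaperones, had 57.2, 29.2, 19.8 and 61.9 TPM in the water-treated controls and 49.5, 99.5, 49.6, 50.6 and 42.4 in the knockout-labelled mice. After DSS it had 32.8, 50.4 and 50.3 TPM, and 50.1, 32.3, 39.1 and 46.3. *Creld2* (chr15:88819646-88826683, plus), a secreted ER stress protein, had 60.3, 30.96, 28.1 and 87.2 TPM in the water-treated controls. It had 48.9, 154, 46.1, 67.7 and 45.8 TPM in the water-treated knockout-labelled mice, and lay between 28.3 and 51.4 TPM after DSS. *Manf* (chr9:106838312-106891979, minus), another secreted protein of the response, lay between 3.05 and 7.76 TPM in water-treated mice and between 3.01 and 8.79 after DSS. The listed *Manf* transcript has 2247 bases and is 1 of 7 annotated, so these low values are those of that transcript and not of the whole gene. For *Herpud1*, 3.64% of the listed transcript's stretches of 31 bases occur in no other transcript of that gene, and for *Atf4* 15.8%, so their values depend on how reads were divided between transcripts. *Sdf2l1* and *Creld2* have a single annotated transcript each.

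**Figure D1:**
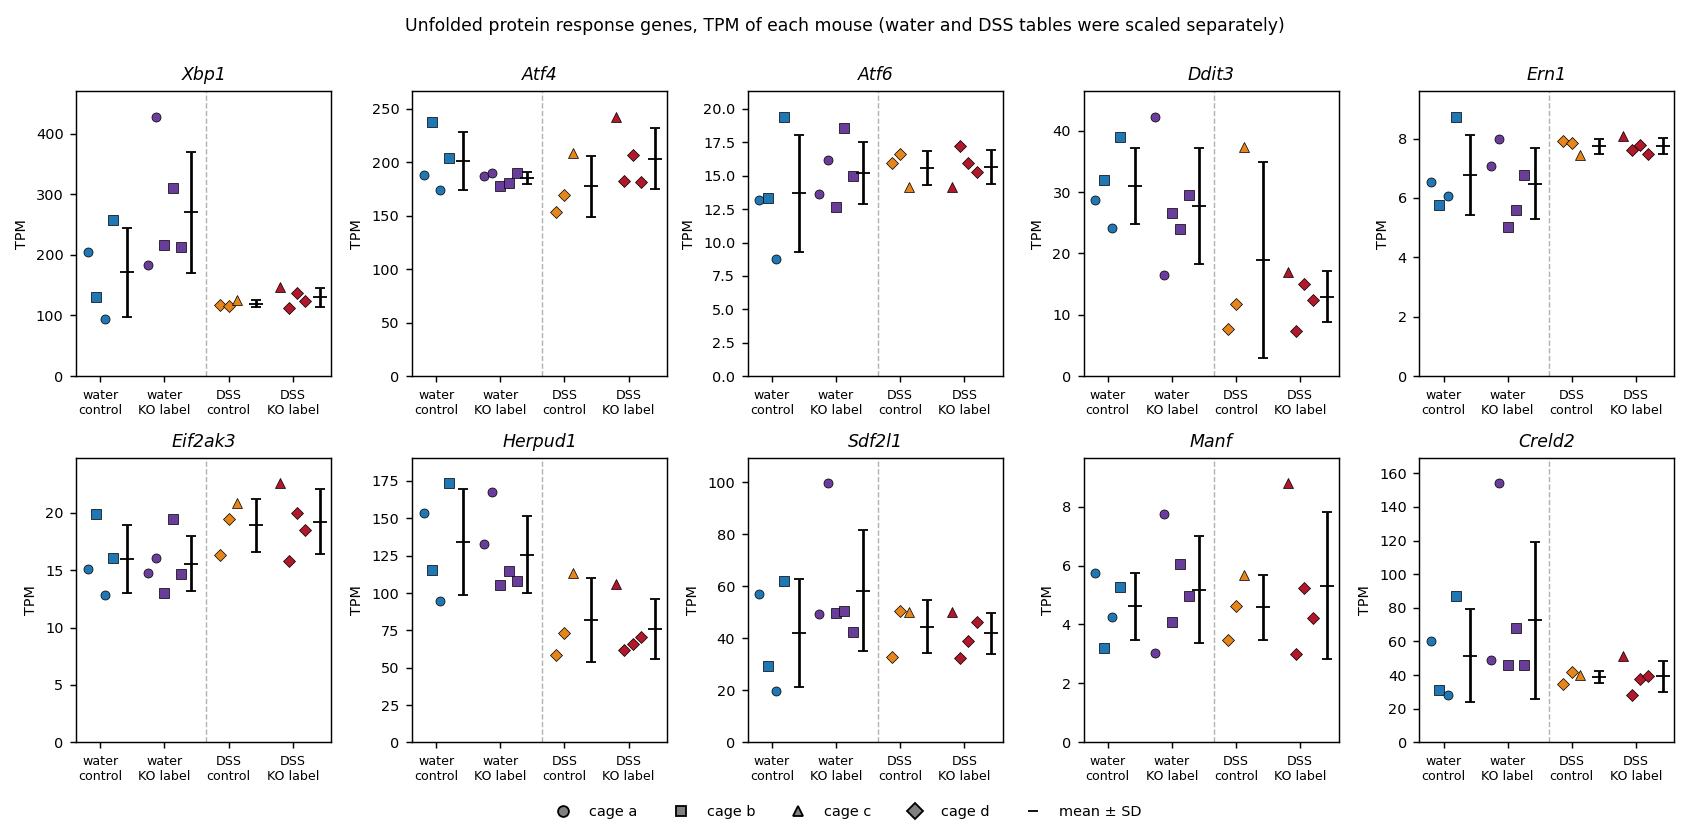
TPM of the 10 member genes (y axis, from 0, a scale for each gene) in each mouse of the 4 groups (x axis; KO label, knockout-labelled); the marker gives the cage and the black bar the mean ± SD of the group. Water-treated knockout-labelled mouse 2 stands highest for Xbp1, Sdf2l1 and Creld2, with 427, 99.5 and 154 TPM, and the cage c mice are the highest DSS-treated mice for Herpud1, with 113 and 106 TPM.

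Whether the deletion of *Tnfr2* from the epithelium alters the response was asked within each treatment. In neither treatment did any of the 10 genes pass the test between genotypes. The comparison used limma on log2(TPM + 1), p-values were adjusted over all genes tested, and a gene was called at an adjusted p under 0.05. In the water-treated mice 0 of 10 members were called, where 1 of 11046 genes (0.00905%) was called and 583 (5.28%) had an unadjusted p under 0.05. None of the members, 0 of 10, reached that unadjusted level. *Xbp1* had the lowest p of the members: its mean was 171 ± 73.1 TPM in controls (SD, n = 4) and 270 ± 100.1 in knockout-labelled mice (n = 5), a log2 fold change of 0.69 (SE 0.34, adjusted p = 0.865 by limma). An exact two-sided permutation of the mice gave p = 0.151 for *Xbp1* (n = 4 and 5), where the smallest p possible was 0.00794. The groups overlapped for each of the 10 members, whereas 1.55% of all genes did not overlap. The immunoglobulin share was also higher on average in the knockout-labelled mice, 28.4% ± 12.6 (n = 5) against 16.4% ± 13.7 (n = 4), and its groups overlapped (exact permutation p = 0.230). With that share as a covariate the *Xbp1* difference went from 0.69 to 0.16, that of *Sdf2l1* from 0.54 to −0.04, that of *Creld2* from 0.46 to −0.15 and that of *Atf4* from −0.11 to −0.15 on the log2 scale, and 0 of 10 members were called.

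After DSS, 0 of 10 members were called, where 1 of 10899 genes (0.00918%) was called and 289 (2.65%) had an unadjusted p under 0.05. The member with the lowest p was *Atf4*, with 177 ± 28.3 TPM in controls (n = 3) and 203 ± 28.4 in knockout-labelled mice (n = 4), a log2 fold change of 0.20 (SE 0.15, limma adjusted p = 1.00). The genotypes overlapped for each of the 10 members, and 3.68% of all genes did not overlap. The exact permutation p of *Atf4* was 0.286 (n = 3 and 4), against a smallest possible p of 0.0286. *Ern1* was even, with 7.74 ± 0.247 TPM in controls and 7.74 ± 0.267 in knockout-labelled mice. *Ddit3* had 18.9 ± 16.04 TPM in the controls and 12.97 ± 4.11 in the knockout-labelled mice, and control 3, with 37.3 TPM, stood above the other 2 controls, with 7.69 and 11.8.

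The wider pathway gave the same counts between genotypes. Of 18 ER chaperones and folding enzymes, 13 genes of ER-associated degradation, 20 targets of PERK and ATF4, 20 genes of translocation and secretory transport and 15 other sensors, proteases and kinases tested in the water-treated mice, 0 were called. The genes with the lowest p in these lists were the folding enzyme gene *Fkbp2* (log2 fold change 0.35, SE 0.13), *Derl1* of the degradation channel (0.28, SE 0.11), *Psat1* of serine synthesis (1.16, SE 0.38), *Ssr2* of the translocon (0.35, SE 0.12) and the transcription factor gene *Creb3* (0.52, SE 0.14), all with an adjusted p of 0.865 from limma. After DSS, 0 genes of these lists were called either. The lowest p values belonged to *Canx*, *Vcp*, *Mthfd2*, *Sec61b* and *Ppp1r15b*, with log2 fold changes between 0.13 and 0.37, and each had a limma adjusted p of 1.00. The chaperone *Hspa5* (BiP) had 488 ± 88.1 and 473 ± 138 TPM in water-treated controls and knockout-labelled mice, and 481 ± 77.3 and 543 ± 93.9 after DSS. *Dnajb9*, a BiP cofactor that responds to XBP1, had 32.4 ± 3.39 and 27.0 ± 3.03 TPM in the water-treated groups. Its log2 fold change there was −0.25 (SE 0.12, limma adjusted p = 0.865), and the exact permutation p was 0.0159 (n = 4 and 5).

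In the water-treated mice the members were set against the immunoglobulin share, and 0 of 10 passed the adjusted test. *Xbp1*, *Sdf2l1* and *Creld2* had the steepest slopes of the members, and *Atf4* and *Ddit3* had slopes near 0, a contrast that was not tested. The immunoglobulin share, the percent of a mouse's listed TPM in immunoglobulin genes, was 24.8%, 8.25%, 1.62% and 30.9% in controls 1 to 4. It was 18.1%, 47.4%, 20.2%, 35.4% and 21.1% in the 5 knockout-labelled mice. Most of the constant region RNA was *Igkc*, the kappa light chain, with 2093 to 133382 TPM. Between the mouse with the lowest share, control 3, and the mouse with the highest, knockout-labelled mouse 2, *Xbp1* differed 4.54-fold, *Sdf2l1* 5.03-fold and *Creld2* 5.48-fold. For *Atf4* that ratio was 1.09, and for *Ddit3* it was 0.680. The mice were the same for each gene, so these ratios share their libraries.

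Each gene was fitted by limma on the log2 of the share with genotype as a covariate, and the slope is the log2 change of TPM + 1 per doubling of the share. Over all genes, 36 of 11046 (0.326%) were called, of which 35 had a positive slope (0.317%), and 0 of the 10 members. *Sdf2l1* had a slope of 0.41 (SE 0.07, adjusted p = 0.0850) and *Xbp1* one of 0.38 (SE 0.07, adjusted p = 0.0884), which places them 58th and 61st of the genes by p. *Creld2* had a slope of 0.44 (SE 0.12, adjusted p = 0.310), *Atf6* one of 0.21 (SE 0.05, adjusted p = 0.272) and *Herpud1* one of 0.21 (SE 0.05, adjusted p = 0.271) by limma. These 5 genes had an unadjusted p under 0.05 with a positive slope, as did 5.85% of all genes, and 8.56% reached that level in either direction. *Manf* had a slope of 0.15 (SE 0.09), *Ern1* 0.08 (SE 0.07), *Eif2ak3* 0.07 (SE 0.06), *Atf4* 0.03 (SE 0.04) and *Ddit3* 0.02 (SE 0.11), each with a limma adjusted p of at least 0.732. All 10 slopes were positive, as were 50.5% of those of all genes, and the median was 0.18 for the members and 0.00 for all genes.

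The calls for *Xbp1* and *Sdf2l1* lay close to the threshold and depended on the setting. *Xbp1* was called in 3 of 11 alternatives: scaled to the TPM outside immunoglobulin genes (adjusted p = 0.0443), without the genotype term (0.0135) and with the linear share (0.0213). Over the 11 its limma adjusted p lay between 0.0135 and 0.792. *Sdf2l1* was called in 3 of 11, on the same scaling (adjusted p = 0.0484), with cage as a covariate (0.0371) and without the genotype term (0.0176), in a range up to 0.781. *Creld2* was called in 1 of 11, with the linear share (adjusted p = 0.0248), in a range up to 0.806. No other member was called in any of these alternatives, and no member when a mouse was left out.

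As single values, the correlations of log2(TPM + 1) with the log2 share over the 9 water-treated mice were computed for the 10 genes by exact two-sided permutation. *Xbp1* had Pearson's r = 0.93 (exact p = 1.65e-05) and Spearman's rho = 0.93 (exact p = 0.000750). *Sdf2l1* had r = 0.92 (exact p = 0.000289) and rho = 0.90 (exact p = 0.00203), and *Creld2* had r = 0.81 (exact p = 0.0110) and rho = 0.92 (exact p = 0.00131). For *Atf6*, r was 0.86 (exact p = 0.00375) and rho 0.75 (exact p = 0.0255). *Manf* had a higher rho, 0.87 (exact p = 0.00451), than r, 0.55 (exact p = 0.131). *Herpud1* had r = 0.66 (exact p = 0.0376) and rho = 0.60 (exact p = 0.0968). The other 4 genes, *Ern1*, *Eif2ak3*, *Atf4* and *Ddit3*, had r between −0.08 and 0.36 and an exact p for r of at least 0.357. These p-values are raw values over 10 relations. Adjusted over the 10 by the Benjamini-Hochberg method, the exact p for r was 0.000165 for *Xbp1* and 0.00145 for *Sdf2l1*. It was 0.0125 for *Atf6* and 0.0276 for *Creld2*, so that 4 of 10 were under 0.05 for r. For rho it was also 4 of 10, with *Manf* (0.0113) in place of *Atf6* (0.0510). The values adjusted over all genes belong to the fit above, a different model with genotype as a covariate, and not to these correlations.

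The relation was then recomputed without the 2 mice whose log2 share was farthest from the median, controls 2 and 3. Over the 7 mice left, r was 0.96 for *Xbp1* (exact permutation p = 0.00119), 0.92 for *Creld2* (exact p = 0.00397), 0.90 for *Manf* (exact p = 0.00476) and 0.80 for *Sdf2l1* (exact p = 0.0210). For *Atf6* it was 0.68 (exact p = 0.0992) and for *Herpud1* 0.54 (exact p = 0.205), so those relations rested in part on controls 2 and 3. For *Ddit3* it was −0.70 (exact p = 0.0762). In percent, the farthest were control 3 and knockout-labelled mouse 2, a choice added after the values were seen. Without them r was 0.96 for *Xbp1* (exact permutation p = 0.00119), 0.91 for *Creld2* (exact p = 0.00456), 0.88 for *Sdf2l1* (exact p = 0.0208) and 0.81 for *Manf* (exact p = 0.00992). For *Atf6* it was 0.65 (exact p = 0.115) and for *Herpud1* 0.34 (exact p = 0.475). Within cage a (4 males) the *Xbp1* slope was 0.39 and within cage b (5 females) 0.56, and it was 0.32 in the 4 controls and 0.82 in the 5 knockout-labelled mice. The slopes of *Sdf2l1* in these 4 subsets lay between 0.38 and 0.64, and those of *Creld2* between 0.35 and 1.13. Without control 3 the slope over the other 8 mice was 0.62 for *Xbp1*, 0.60 for *Sdf2l1*, 0.88 for *Creld2*, 0.48 for *Manf* and −0.25 for *Ddit3*, and 2 genes were called in place of 36.

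**Figure D2:**
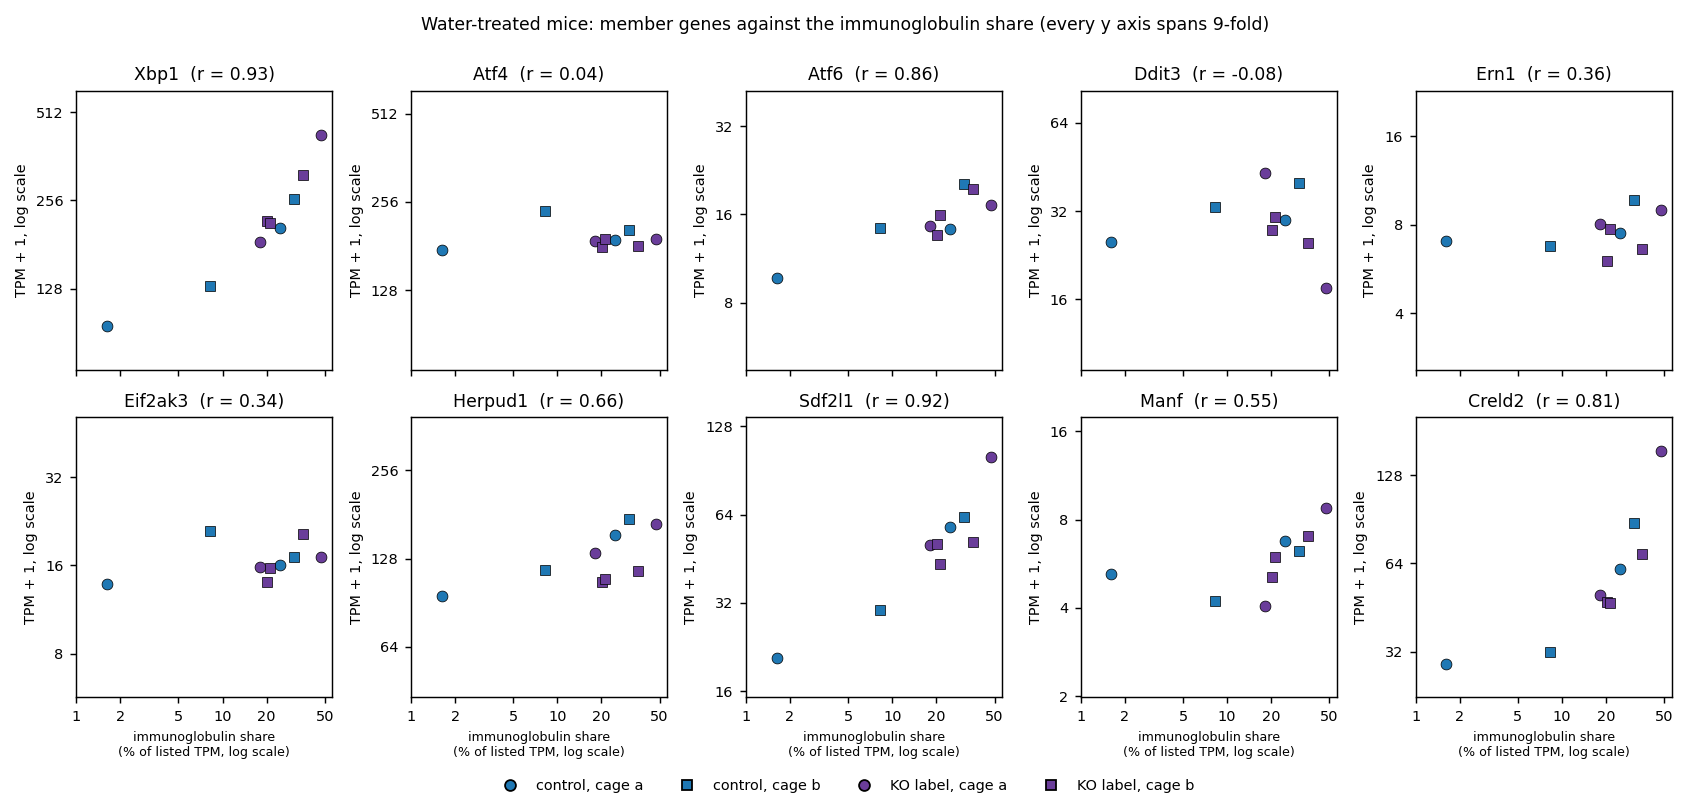
TPM + 1 of each member (y axis, log scale, spanning 9-fold in each plot) against the immunoglobulin share (x axis, percent of listed TPM, log scale) in the 9 water-treated mice; colours give the genotype label and markers the cage, and r is Pearson's correlation of the log2 values. Xbp1, Sdf2l1 and Creld2 climb from the mouse at 1.62% to the mouse at 47.4%, while Atf4 stays between 174 and 238 TPM.

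Plasma cell genes followed the share closely in the same mice, with *Mzb1* first of 11046 genes by p. Of 9 plasma cell markers tested, 6 were called, with a median slope of 0.66, among them *Mzb1* itself (slope 1.06, SE 0.07) and *Jchain*, the joining chain of secreted antibodies (1.01, SE 0.08), each with a limma adjusted p of 0.0014. Of 3 B cell markers tested, *Cd79a* and *Cd79b* were called, where 0.317% of all genes were called with a positive slope. *Fkbp11*, one of the called markers, is itself an ER folding enzyme. Of 8 epithelial markers 0 were called, and 7 had a slope below 0, with a median of −0.09. Of 7 goblet cell markers 0 were called, with a median slope of 0.01, and of 6 macrophage and 7 stromal markers 0 were called. The part that plasma cell RNA plays in the levels of *Xbp1*, *Sdf2l1* and *Creld2* was not tested.

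Other genes of the ER pathway had positive slopes as well. In each of 4 lists the median slope was above that of all genes, 0.00. It was 0.12 for 18 chaperones and folding enzymes, of which 0 were called and 9 had an unadjusted p under 0.05 with a positive slope. It was 0.18 for 13 genes of ER-associated degradation, of which 1 was called: *Edem2*, which marks misfolded glycoproteins for degradation, rose by 0.49 per doubling (SE 0.07, limma adjusted p = 0.0323), from 19.4 TPM in control 3 to 117 in knockout-labelled mouse 2. It was 0.15 for 20 genes of translocation and secretory transport, of which 1 was called: *Lman1*, a cargo receptor between ER and Golgi, rose by 0.28 (SE 0.04, limma adjusted p = 0.0268). It was 0.10 for 20 PERK and ATF4 targets, of which 1 was called: *Phgdh*, an enzyme of serine synthesis, rose by 0.60 (SE 0.07, limma adjusted p = 0.0106). For 15 other sensors, proteases and kinases the median slope was 0.01 and 0 were called. Over all genes, 0.317% were called with a positive slope. An unadjusted p under 0.05 with a positive slope was found for 7 of the 13 degradation genes and 10 of the 20 translocation and transport genes. It was found for 6 of the 20 PERK and ATF4 targets, 1 of the 15 others and 5.85% of all genes. Of those 15, 2 had such a p with a negative slope. The chaperones *Hsp90b1* (GRP94) and *Hspa5* had slopes of 0.36 (SE 0.09) and 0.16 (SE 0.07), and *Dnajb9* had 0.07 (SE 0.04), with limma adjusted p of 0.227, 0.595 and 0.737. *Ern2* had a negative slope, −0.32 (SE 0.13, limma adjusted p = 0.531).

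**Figure D3:**
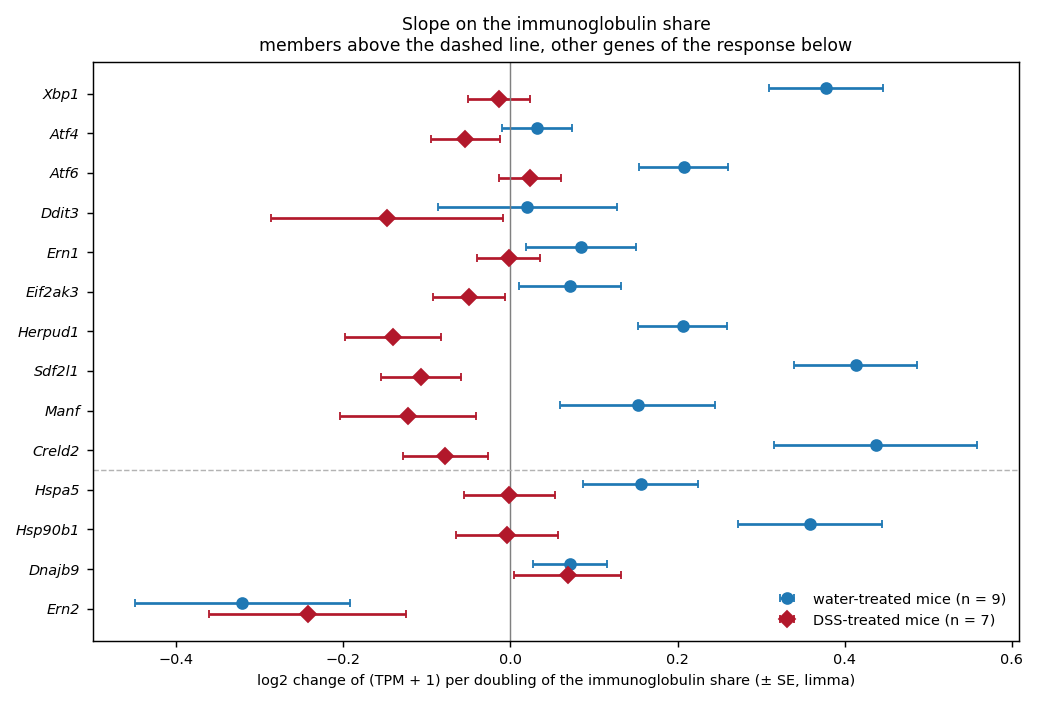
Slope of log2(TPM + 1) per doubling of the immunoglobulin share (x axis, ± SE from limma, genotype as covariate) for the 10 members and 4 other genes of the response (y axis), in 9 water-treated and 7 DSS-treated mice. Sdf2l1, Xbp1 and Creld2 reach 0.41, 0.38 and 0.44 in water-treated mice and −0.11, −0.01 and −0.08 after DSS.

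The same fit was made after DSS, where the immunoglobulin share was low. It was 0.319%, 0.0260% and 0.0332% in controls 1 to 3 and 0.0592%, 0.363%, 2.26% and 0.316% in the knockout-labelled mice. Of 10899 genes, 2 were called (0.0184%), and 0 of the 10 members. Of the members 1 had a slope above 0, as had 48.0% of all genes, and the members' median was −0.07. *Xbp1* had a slope of −0.01 (SE 0.04), *Sdf2l1* −0.11 (SE 0.05) and *Creld2* −0.08 (SE 0.05). *Herpud1*, at −0.14 (SE 0.06, limma adjusted p = 0.783), was the only member with an unadjusted p under 0.05, a level reached by 6.31% of all genes, 2.36% with a negative slope. The 2 mice of cage c had shares of 0.0332% and 0.0592%. Within cage d (5 mice) the slope was −0.03 for *Herpud1*, −0.06 for *Sdf2l1* and −0.03 for *Creld2*. With cage as a covariate the members' median slope was −0.01. Over the 7 mice *Xbp1* had r = 0.10 (exact permutation p = 0.815) and rho = 0.00 (exact p = 1.00). *Sdf2l1* had r = −0.68 (exact permutation p = 0.102) and rho = −0.89 (exact p = 0.0123), and *Creld2* had r = −0.49 (exact p = 0.258) and rho = −0.79 (exact p = 0.0480), both negative where the water-treated mice had positive values. Without controls 2 and 3, r was −0.44 for *Sdf2l1* (exact permutation p = 0.458) and −0.50 for *Creld2* (exact p = 0.367). These are raw values over 10 relations. Adjusted over the 10 in all 7 mice, the exact permutation p for rho was 0.123 for *Sdf2l1* and 0.221 for *Creld2*. For r and for rho, 0 of 10 members were under 0.05 after this adjustment. Of 5 plasma cell markers tested in the fit after DSS, 1 was called, *Jchain* (slope 0.97, SE 0.04, limma adjusted p = 0.00051). Of 6 stromal markers 0 were called, but all 6 had a slope above 0, with a median of 0.40. An unadjusted p under 0.05 was found for 5 of these 6. The part of stromal RNA in the slopes was not tested. The share of the 1 mouse at 2.26% exceeded that of the lowest water-treated mouse, and whether the slopes differ between treatments was not tested.

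After DSS the values of several members did not overlap between the cages. This split was made after the values were seen, and it is given without a test. Of the 10 genes, 5 were higher in both mice of cage c (control 3 and knockout-labelled mouse 1) than in all 5 mice of cage d: *Atf4*, *Ddit3*, *Eif2ak3*, *Herpud1* and *Manf*. The same held for 15.6% of all genes, and for 9.94% in the other direction, which was the case for *Atf6*. *Herpud1* had a mean of 109 TPM in cage c (106 and 113) and 66.1 in cage d (58.8 to 73.2). *Ddit3* had 16.9 and 37.3 TPM in cage c and 7.43 to 15.1 in cage d, and *Manf* had 5.66 and 8.79 against 3.01 to 5.25. *Atf6* had 14.13 and 14.15 TPM in cage c and 15.3 to 17.2 in cage d. Each cage held mice of both genotypes. The 2 mice of cage c were not alike otherwise: goblet cell markers summed to 9541 TPM in control 3 and 3479 in knockout-labelled mouse 1, against 2528 to 3749 in cage d. Among the water-treated mice 0 of 10 members separated cage a from cage b, as did 0.797% and 0.996% of all genes in the 2 directions.

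The members' values were also compared between treatments as levels. As deposited, the mean log2(TPM + 1) of the median gene was higher after DSS by 0.32 in controls and 0.31 in knockout-labelled mice, and the tables had been scaled separately. Set against it, all 10 members lay below the median gene in both genotypes, and they did so too after rescaling the 16 mice together by median-of-ratios factors and relative to the TPM outside immunoglobulin genes. On the median-of-ratios scale, where the median gene moved by 0.01 in controls and −0.00 in knockout-labelled mice, the members' median difference was −0.41 and −0.53. *Ddit3* had the largest difference on that scale, −1.30 in controls and −1.37 in knockout-labelled mice, against −0.96 and −1.04 as deposited. *Herpud1* differed by −1.07 and −1.08, against −0.72 and −0.73 as deposited. *Xbp1* differed by −0.77 in controls and −1.35 in knockout-labelled mice, and *Creld2* by −0.60 and −1.08. It was near 0 for *Eif2ak3*, −0.10 and −0.05, and for *Ern1*, −0.12 and −0.08, and both had positive values as deposited, 0.24 and 0.29 for *Eif2ak3* and 0.19 and 0.24 for *Ern1*.

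On the median-of-ratios scale *Herpud1* was the only member whose 7 DSS-treated mice all lay below the 9 water-treated mice, with 51.0 to 91.3 against 104 to 190 median-of-ratios scaled TPM. Of all genes, 7.04% lay lower in this way. As deposited no member, 0 of 10, was separated like this, where 4.16% of genes were lower and 18.9% higher in all 7 DSS-treated mice. Relative to the TPM outside immunoglobulin genes it was 0 of 10 as well, against 6.79% of genes. In the knockout-labelled mice *Xbp1* was separated as deposited, with 112 to 147 TPM after DSS and 183 to 427 in water, as were 10.1% of genes, and in the controls 0 of 10 members were, against 8.12%. On the median-of-ratios scale 3 members were separated in the controls (*Xbp1*, *Atf4* and *Herpud1*; 14% of genes) and 5 in the knockout-labelled mice (*Xbp1*, *Ddit3*, *Herpud1*, *Sdf2l1* and *Creld2*; 18.0%). Relative to the TPM outside immunoglobulin genes these counts were 2 (*Atf4* and *Herpud1*; 15.2%) and 3 (*Xbp1*, *Ddit3* and *Herpud1*; 14%). The summed plasma cell and macrophage markers were lower after DSS in the same comparison, with the ranges given above, and their part in these levels was not tested. Treatment, cage, the choice of injured regions after DSS and the scaling of the tables cannot be told apart here.

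**Figure D4:**
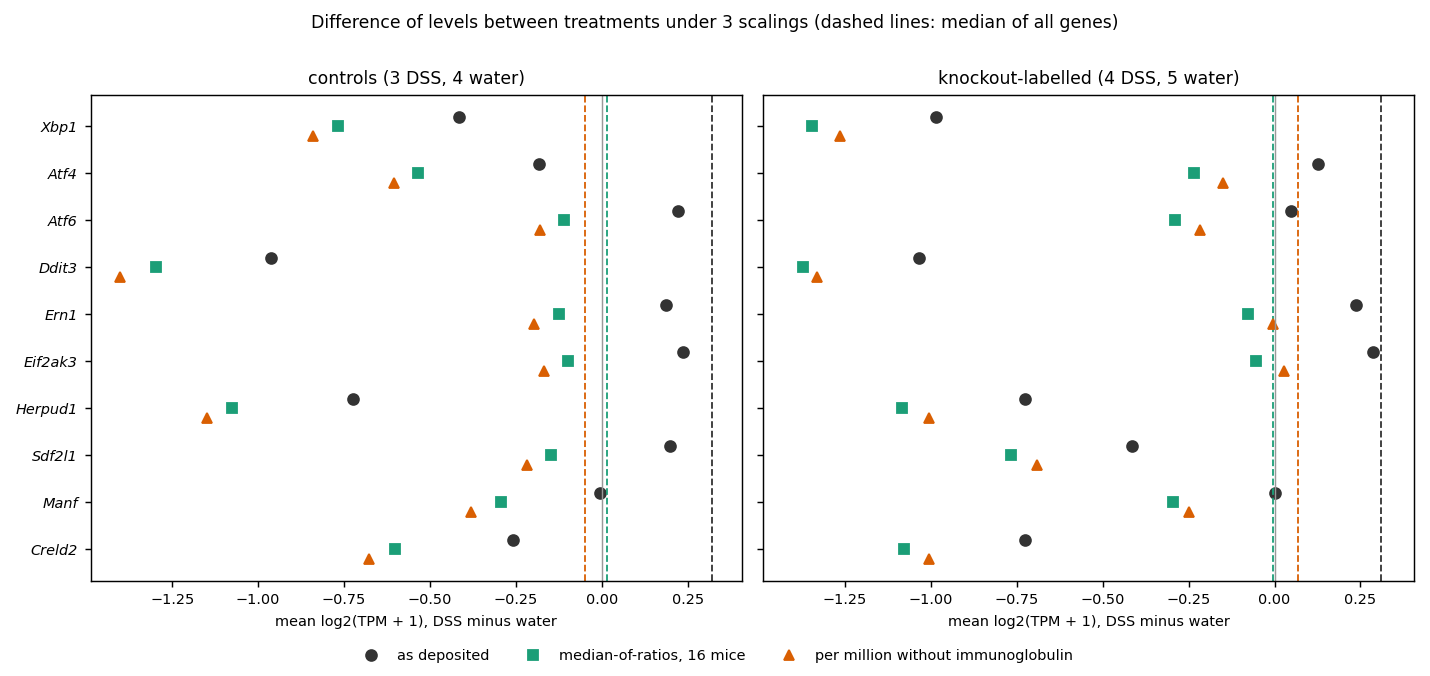
Difference of the mean log2(TPM + 1), DSS minus water (x axis), for the 10 members (y axis) in controls and in knockout-labelled mice under 3 scalings; dashed lines give the median of all genes on each scaling. Every member lies to the left of the dashed line of its scaling, with Ddit3 at −0.96 and −1.04 as deposited.

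The members did not vary as a single block. In the water-treated mice the closest pairs were *Sdf2l1* and *Creld2* (r = 0.94), *Xbp1* and *Sdf2l1* (0.94) and *Xbp1* and *Creld2* (0.93), and the lowest was *Ddit3* and *Manf* (−0.69). After DSS the closest were *Eif2ak3* and *Manf* (r = 0.96) and *Manf* and *Creld2* (0.91), and *Atf6* ran against *Herpud1* (−0.87) and *Ddit3* (−0.80). These values describe 9 and 7 libraries that share cage and scaling. The genes whose log2(TPM + 1) ran closest to the members' mean, among 6719 other genes averaging 5 TPM or more in the water-treated mice, were *Serpina3f*, *Srpr*, *Ube2b*, *Plcg2*, *Zfp280b*, *Tnfrsf13b*, *Pdia4*, *Srm*, *Serpina3g* and *Tmem154*, with r between 0.94 and 0.96 over 9 mice. *Srpr* encodes the receptor of the signal recognition particle, *Pdia4* an ER disulfide isomerase and *Tnfrsf13b* a receptor of B and plasma cells. Of 174 immunoglobulin genes above that level, 0 ran as close. After DSS the closest of 7287 genes included *Chmp7*, *Pqbp1*, *L3mbtl2*, *Zc3h12a*, *Htra2*, *Ift27*, *Gmeb2*, *Nfkb2* and *Hs3st1*, with r between 0.95 and 0.99 over 7 mice. *Zc3h12a* encodes a ribonuclease that limits inflammatory transcripts, and *Nfkb2* a subunit of NF-κB. None of these named genes stood in both lists.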

How the data were processed

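The sample labels gave each mouse's group, cage and sex. The authors quantified reads with kallisto and sleuth and deposited 1 table of TPM per treatment, for principal transcripts only. Each table was scaled between its own mice, so tests were run within a table. The submitters' processing notes name mm10. The deposited p-values, q-values and log ratios of the authors' comparisons were not used. Of 29373 lines, 385 repeats were dropped, leaving 28988 transcripts, of which 27827 (96.0%) had the same version in GENCODE M21. No column of another sample was present (0). TPM keeps no depth, so the tests rest on the spread between mice and could not take read counts into account.

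TPM was summed per symbol. limma 3.58.1 (R 4.3.3), with the variance trend, was run on log2(TPM + 1) for genes averaging 1 TPM or more, and its p-values were adjusted over all of these by the Benjamini-Hochberg method. The fit was tested on simulated data. Fold changes on this scale understate those of low genes. Immunoglobulin genes were taken by symbol. Single values were tested by exact permutation in Python 3.11.15 (numpy 2.4.6, pandas 2.3.3, scipy 1.17.1); figures used matplotlib 3.10.9.

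The members and lists were chosen with earlier results of these data known. Named genes are the members, *Tnfrsf1b*, *Hspa5*, *Hsp90b1*, *Ern2*, *Dnajb9*, up to 4 called genes of each list in each direction or, with none called, the gene with the lowest p, and the 10 genes most like the members' mean, of which 1 is not reported here. Alternatives were a pseudocount of 0.1, other filters (TPM above 0, mean of at least 5), other scalings, cage, immunoglobulin share or replicate number as terms, no genotype term, constant region genes only, the linear share, and leaving out each mouse. The paper states a higher DSS concentration than the labels, and the uninjured mice at the start of the experiment.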

Additional observations from a re-analysis of the deposited data

Results flagged for a closer look

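Of 33 sets of values (the 10 members and the immunoglobulin share in the 3 groups of 4 or 5 mice), 3 had a mouse that stood apart from the others of its group by Dixon's test, where chance gives about 1 in 20. Water-treated knockout-labelled mouse 2 had 99.5 TPM of *Sdf2l1*, and the other 4 mice of its group had 42.4 to 50.6. The same mouse had 154 TPM of *Creld2*, against 45.8 to 67.7 in the others, and it also had the highest immunoglobulin share of all mice, 47.4%. DSS-treated knockout-labelled mouse 3 had an immunoglobulin share of 2.26%, against 0.0592% to 0.363% in the others of its group. No member's genotypes separated in opposite directions in the 2 treatments.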

How the results depend on the processing

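None of the reversed values in this paragraph passed the test in either direction, and the cause was not tested. Between genotypes after DSS, 0 genes were called in place of 1 with a pseudocount of 0.1, with all genes above 0 TPM, with the replicate block and with the immunoglobulin share as a covariate, and 0 to 3 when a mouse was left out (3 without control 1, 2 without control 3, 0 without control 2 or knockout-labelled mouse 1, 2 or 3). In the water-treated mice 0 genes were called in place of 1 with a pseudocount of 0.1, with a mean of at least 5 TPM and with the replicate block, 4 with all genes above 0 TPM, and 1 to 2 when a mouse was left out (2 without control 1, control 3 or knockout-labelled mouse 1). No member was called between genotypes in any of these, 0 of 10. The log2 differences after DSS took the opposite sign for *Atf6* with median-of-ratios scaling (−0.00011), quantile normalization (−0.0041), cage as a covariate (−0.0089) and the share as a covariate (−0.051). With cage as a covariate they did so for *Ern1* (0.00049) and *Creld2* (0.018), and with the replicate block for *Ern1* (0.014). With the share as a covariate they did so for *Ddit3* (0.090), *Ern1* (0.0047), *Herpud1* (0.26), *Sdf2l1* (0.18), *Creld2* (0.18) and *Ern2* (0.17). Relative to the TPM outside immunoglobulin genes it was so for *Ern1* (0.13), *Herpud1* (0.052), *Sdf2l1* (0.058) and *Creld2* (0.12). In the water-treated mice it was so only with the share as a covariate, for *Atf6* (−0.11), *Sdf2l1* (−0.039), *Manf* (−0.10), *Creld2* (−0.15), *Hsp90b1* (−0.20) and *Ern2* (0.28), apart from fits without a mouse.

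For the immunoglobulin share in the water-treated mice, 36 genes were called, against 57 with a pseudocount of 0.1, 22 with all genes above 0 TPM, 59 relative to the TPM outside immunoglobulin genes, 88 without the genotype term, 12 with the linear share and 0 with the replicate block. Leaving out a mouse gave 2 to 46 genes: 2 without control 3, 14 without control 4, 18 without control 1, and 21 to 23 without knockout-labelled mouse 2, 3 or 5. Members called went from 0 to 2 relative to the TPM outside immunoglobulin genes, 1 with cage as a covariate, 2 without the genotype term and 2 with the linear share. The slope took the opposite sign for *Atf4* with quantile normalization (−0.034) and for *Ddit3* without the genotype term (−0.020) and with the linear share (−0.011). After DSS, 7 genes were called with the linear share and 8 with the replicate block in place of 2. The slope there was of opposite sign with cage as a covariate for *Xbp1* (0.027), *Atf4* (0.0073), *Atf6* (−0.011) and *Ddit3* (0.071), and without the genotype term for *Xbp1* (0.0060), *Hspa5* (0.022) and *Hsp90b1* (0.016). With the linear share it was so for *Xbp1* (0.033), *Ddit3* (0.034), *Ern1* (0.00061), *Eif2ak3* (0.00058), *Hspa5* (0.047) and *Hsp90b1* (0.052). It was so for *Atf6* relative to the TPM outside immunoglobulin genes (−0.0039), and with quantile normalization for *Hspa5* (0.017) and *Hsp90b1* (0.012).

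Fits that left out 1 mouse gave values of both signs for these genes. Between genotypes after DSS the ranges were −0.058 to 0.052 for *Atf6*, −0.72 to 0.35 for *Ddit3*, −0.024 to 0.014 for *Ern1*, −0.077 to 0.10 for *Eif2ak3*, −0.29 to 0.18 for *Herpud1*, −0.28 to 0.041 for *Sdf2l1*, −0.12 to 0.31 for *Manf*, −0.15 to 0.13 for *Creld2*, −0.077 to 0.35 for *Hsp90b1*, −0.98 to 0.057 for *Ern2* and −0.058 to 0.36 for *Tnfrsf1b*. In the water-treated mice they were −0.00083 to 0.35 for *Atf6*, −0.12 to 0.061 for *Ern1*, −0.12 to 0.076 for *Eif2ak3*, −0.23 to 0.055 for *Herpud1*, −0.027 to 0.25 for *Manf*, −0.23 to 0.041 for *Hspa5* and −0.45 to 0.13 for *Ern2*. For the share they were −0.081 to 0.052 for *Atf4*, −0.25 to 0.080 for *Ddit3* and −0.016 to 0.097 for *Eif2ak3* in water-treated mice. After DSS they were −0.049 to 0.026 for *Xbp1*, −0.010 to 0.012 for *Ern1*, −0.033 to 0.063 for *Hspa5*, −0.036 to 0.039 for *Hsp90b1* and −0.00058 to 0.15 for *Dnajb9*.

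The replicate numbers of the labels did not pair the mice: deviations of same-numbered mice correlated between −0.08 and 0.09 in the water-treated groups and between −0.20 and −0.03 after DSS. With the replicate block the slope on the share in water-treated mice was 0.39 for *Xbp1* (limma adjusted p = 0.792) and 0.48 for *Sdf2l1* (limma adjusted p = 0.781). With the block it was −0.0015 for *Atf4*, −0.076 for *Ddit3* and −0.050 for *Eif2ak3*, and after DSS 0.0025 for *Hspa5* and 0.017 for *Hsp90b1*.

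Between treatments, as deposited, 6 of 10 members were lower after DSS in controls, against 30.2% of all genes. In knockout-labelled mice it was 5 of 10, against 33.8% of all genes. These counts were 10 and 10 with median-of-ratios scaling (48.9% and 50.2% of all genes), and 10 and 9 relative to the TPM outside immunoglobulin genes (53.2% and 46.4%). *Ern1* changed sign to −0.12 and −0.078 with the former and to −0.20 and −0.0047 with the latter, and *Eif2ak3* to −0.10 and −0.054 and to −0.17 in controls alone. *Manf* averaged under 5 TPM in the water-treated mice and has no value under that filter. The 2 DSS-treated mice of cage c and the narrow range of low shares limit what can be read from the DSS table.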
